A study of Mus musculus with 18 samples.

Results

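The collagen genes of the mouse mammary gland were described across 18 RNA-seq libraries of whole gland tissue. They were taken as every gene of the count table whose symbol is written Col, a number, the letter a and a number, which gave 43 of 23337 symbols. By the usual division, 11 of them encode chains of fibril-forming (fibrillar) collagens, 6 encode the type IV chains of basement membranes, and 26 encode other collagens. The mice, of the mixed strain C57BL/6Jx129, were homozygous for loss of Cip2a (Cip2a-/-), a gene whose protein inhibits the phosphatase PP2A, or wild type (WT). Glands came from untreated mice, from mice 2 weeks after the last of 6 weekly gavages of 1 mg of the carcinogen DMBA in oil, and from DMBA-treated mice at their endpoint, each condition in both genotypes with 3 libraries per group. Dosing began at 12 to 14 weeks of age. At the endpoint the mice were sacrificed because of a DMBA-induced tumour in some tissue, but the sampled glands were tumour-free, and lymph nodes were left out of all samples. The sources used here do not give the age of the untreated and endpoint mice, how long after dosing the endpoint came, or any oil-only control, so age, time and the presence of a tumour cannot be told apart in any comparison of the endpoint.

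Collagens are extracellular proteins whose chains wind into a helix, either with copies of themselves or with other chains of their type. Fibrillar collagens (types I, III and V here) form the fibres of the connective tissue around mammary ducts and fat, and are made mainly by fibroblasts. Type IV collagen forms the sheet-like network of the basement membrane under epithelium, around fat cells and around blood vessels. Type VI forms beaded filaments between cells and fibres, types XV and XVIII (multiplexins) lie at basement membranes, and the FACIT collagens (fibril-associated, with interrupted helices) decorate fibrils. The chains are modified, folded, secreted, trimmed and cross-linked by a set of enzymes and chaperones, and cells bind the finished fibres through integrins and discoidin domain receptors.

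Read totals per library ranged from 16121743 to 24586404, and levels are given as depth-scaled counts (CPM, the usual counts-per-million scale) after TMM scaling of the library sizes. The targeted gene Cip2a, listed as C330027C09Rik, had 0 or 1 read in each of the 9 Cip2a-/- libraries and 15 to 126 reads in the 9 WT libraries. Libraries of one condition differed in tissue make-up: 7 luminal epithelial markers summed to 3409, 1366 and 3442 CPM in the Cip2a-/- endpoint glands and to 26.5, 3111 and 624 CPM in the WT endpoint glands, against 849 to 2868 CPM at 2 weeks and 545 to 1327 CPM in untreated glands. Skeletal muscle markers (7 genes, none at 0 in any library) varied most: their sum was 107 to 31970 CPM in untreated glands (median 5459 CPM), 150.2 to 59633 CPM at 2 weeks (median 1022 CPM) and 40.9 to 36601 CPM at the endpoint (median 218 CPM). The highest were Cip2a-/- 2 weeks 1 at 59633 CPM and WT endpoint 1 at 36601 CPM. WT endpoint library 1 was the lowest of all 18 in luminal and basal epithelial markers and the highest in brown fat markers (8159 CPM) and B cell markers (1583 CPM). Among the 2-week libraries Cip2a-/- 2 weeks 2 had the highest B cell sum (191 CPM, against at most 34.8 CPM in the other 5). The labels number the libraries but do not say that each came from a separate animal, so p-values measure the spread between these samples, which may be technical.

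By the mean over the 18 libraries, the most abundant collagen mRNA was Col3a1, the single chain of type III collagen, at 366 CPM per kb of mRNA. It was followed by the type IV chains Col4a1 at 260 and Col4a2 at 201 CPM per kb, and by Col1a2, Col6a1, Col1a1 and Col6a2 at 136, 131, 102 and 98.8 CPM per kb. The order was not the same in each condition. At the endpoint the median was 279 CPM for Col3a1, below the 1005 CPM of Col4a1 and the 935 CPM of Col4a2. At the other end, Col10a1, the growth plate cartilage collagen, had 38 reads in all 18 libraries and 6 libraries at 0, and Col2a1, the main fibrillar collagen of cartilage, had 85 reads. These 2 did not pass the low-count filter, which left 41 genes to test, made up of 10 fibrillar, 6 type IV and 25 other collagens. The other collagens ran from Col6a1 down, with mean levels of 40.9 CPM per kb for Col18a1, 23.4 for Col16a1, 10.5 for Col14a1, 7.85 for Col17a1 and 6.35 for Col7a1. Genes such as Col19a1, Col22a1 and Col25a1 stayed near 0.1 CPM per kb, at 0.121, 0.0996 and 0.0698.

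The 43 genes together took 0.585% to 1.33% of the reads in untreated glands, 0.881% to 2.25% at 2 weeks and 0.175% to 0.788% at the endpoint. The median of their summed level was 11569 CPM in untreated glands, 14185 CPM in 2-week glands and 4600 CPM in endpoint glands, and the lowest 2-week library (9738 CPM) was above the highest endpoint library (8063 CPM). The make-up of this sum also differed. Fibrillar collagens made a median of 41.7% of it in untreated glands, 50.7% at 2 weeks and 29.7% at the endpoint, and type IV collagens made 31.0%, 27.7% and 40.0% in the same order. The ranges of the fibrillar share overlapped, with 20.8% to 46.0% at the endpoint, against 41.4% to 57.4% at 2 weeks.

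**Figure D1:**
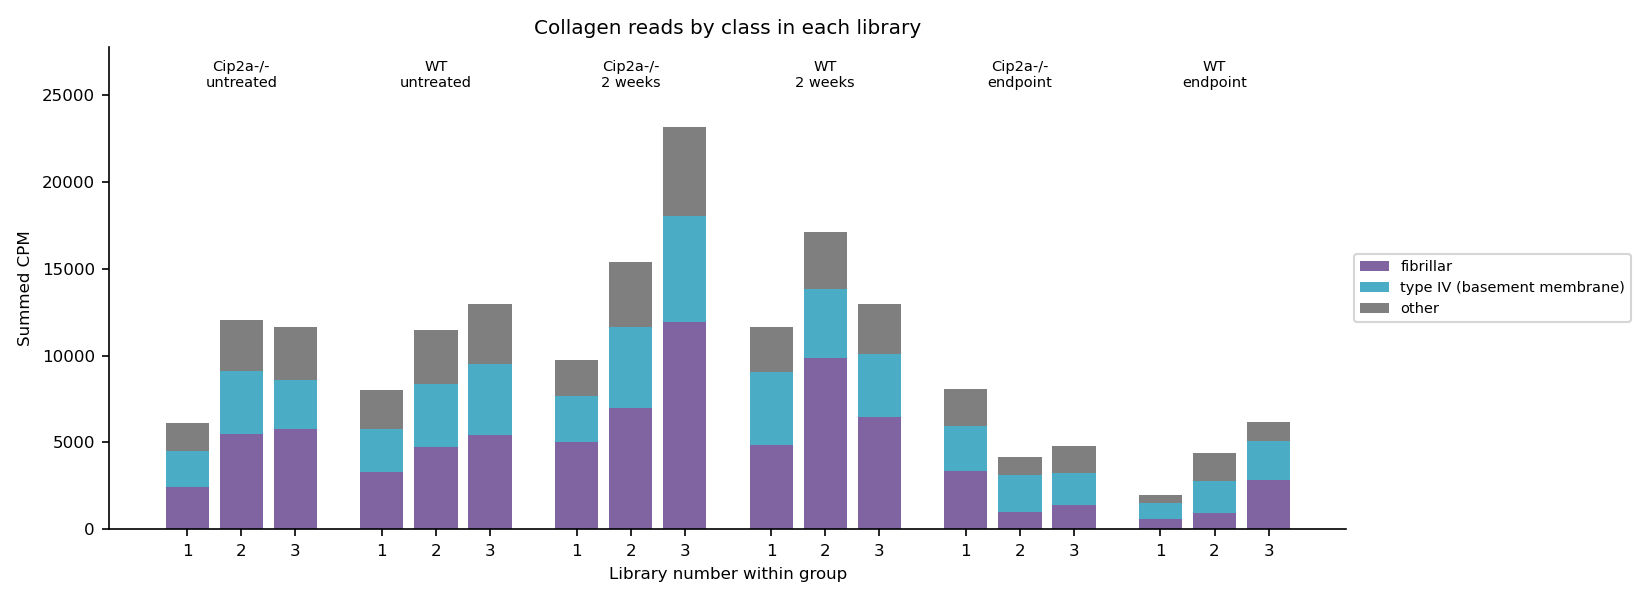
Summed collagen level of each library in CPM, stacked by class (fibrillar, type IV, other), with Cip2a-/- left of WT within each condition. The endpoint columns reach 1949 to 8063 CPM, and those of the 2-week glands 9738 to 23162 CPM.

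The clearest difference among the collagen genes lay between the endpoint and 2 weeks after DMBA, a comparison of both groups of DMBA-treated mice. With the genotypes averaged, 14 of 41 collagen genes (34.1%) were called lower at the endpoint and 0 higher, where 6.94% of all 15482 genes tested were called lower and 6.41% higher. Calls here rest on edgeR's quasi-likelihood test with an adjusted p under 0.05. The fallen genes were 6 of 10 fibrillar, 2 of 6 type IV and 6 of 25 other collagens. The median log2 fold change was -1.66 over the fibrillar genes, -0.86 over the type IV genes and 0.26 over the other collagens, against 0.05 over all genes tested. Without WT endpoint 2 the median of the other collagens was -0.74. In 8 of the 14 (Col3a1, Col5a1, Col5a2, Col4a1, Col6a1, Col6a2, Col6a3 and Col8a1) all 6 endpoint libraries were below all 6 of the 2-week libraries, which held for 3.49% of all genes tested. No collagen gene had them all above, as 2.67% of all genes did. DESeq2 called 17 collagen genes here (21.0% of all genes) and limma voom 15 (11.9%).

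The same 14 genes less Col6a6 were called without Cip2a-/- 2 weeks 1, and the same 14 less Col1a1 without WT endpoint 1 (the libraries highest in muscle markers). Of the 14 genes, 10 were called in every setting tried, with each of the 12 compared libraries left out in turn among them, and the calls of Col1a1, Col1a2, Col4a2 and Col6a6 were not. Among the fits with 1 library left out, Col1a1 was called only without Cip2a-/- endpoint 1, WT endpoint 3 or Cip2a-/- 2 weeks 1. Col1a2 lost its call without Cip2a-/- endpoint 2 or 3, WT endpoint 2, Cip2a-/- 2 weeks 3, or WT 2 weeks 2 or 3. Col4a2 lost it without Cip2a-/- endpoint 3, Cip2a-/- 2 weeks 3, or WT 2 weeks 1 or 2, and Col6a6 without Cip2a-/- endpoint 2 or 3, Cip2a-/- 2 weeks 1 or 3, or WT 2 weeks 2 or 3.

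**Figure D2:**
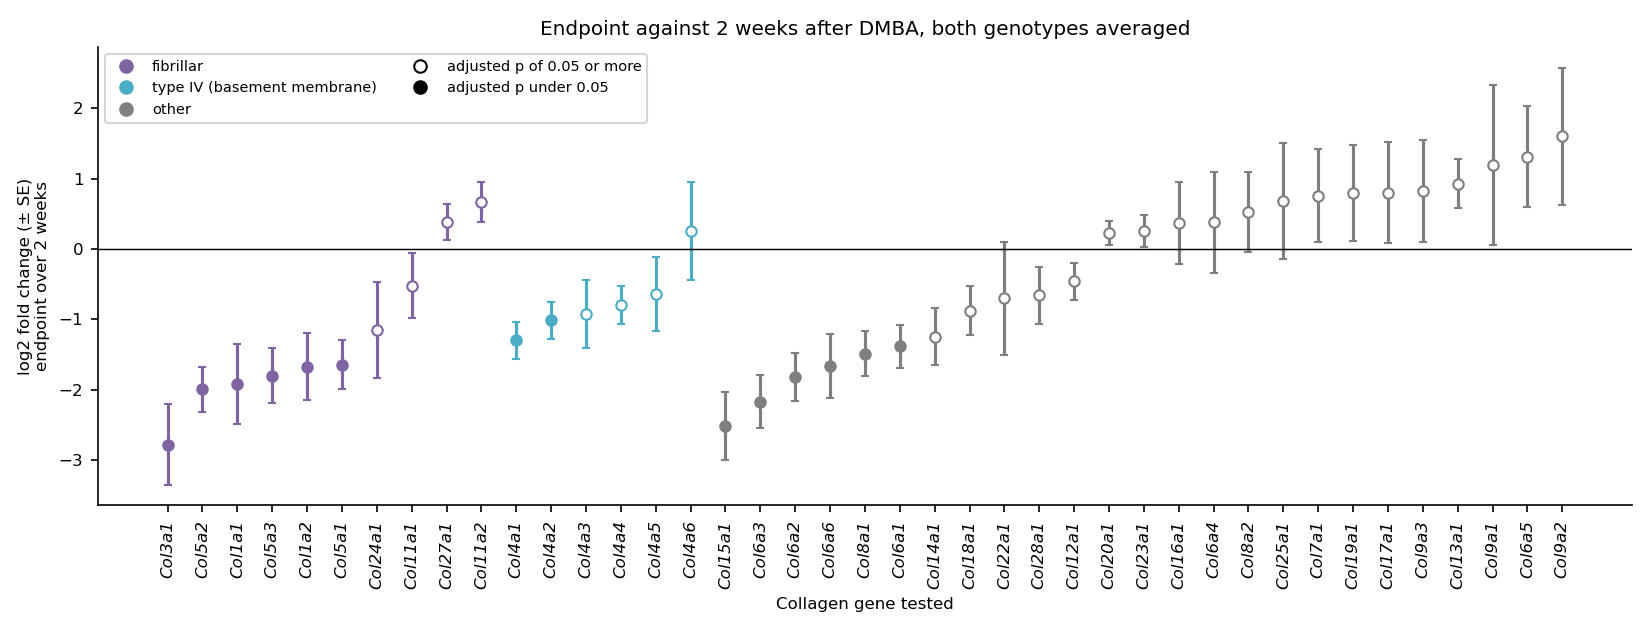
Fitted log2 fold change, endpoint over 2 weeks with the genotypes averaged, of the 41 collagen genes tested, ordered within class, with bars of 1 SE; filled points have an edgeR adjusted p under 0.05. The filled points are the 14 called genes, all below 0, from -1.01 (Col4a2) to -2.78 (Col3a1).

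**Figure D3:**
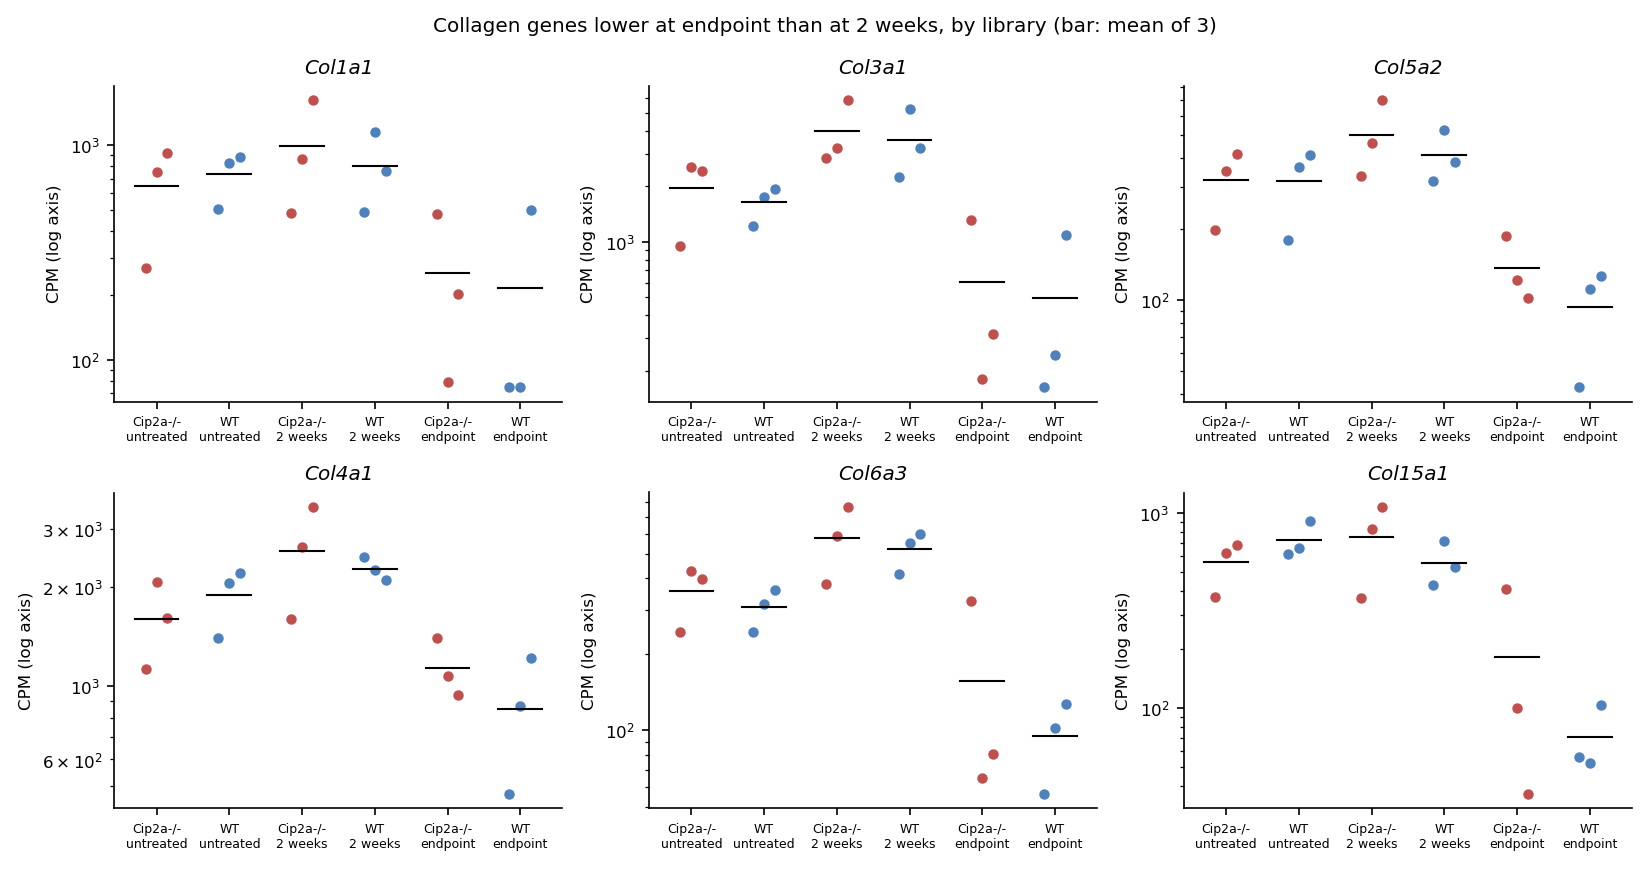
Level in CPM (log axis) of Col1a1, Col3a1, Col5a2, Col4a1, Col6a3 and Col15a1 in each library; points are libraries, bars the mean of 3, red Cip2a-/- and blue WT. The lowest points of each panel are endpoint libraries, and in the Col3a1, Col5a2, Col4a1 and Col6a3 panels all 6 lie below the 2-week libraries.

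Among the fibrillar genes, Col3a1 had the largest fall. It had 1312, 179.8 and 315 CPM in the Cip2a-/- and 162, 243 and 1088 CPM in the WT glands at the endpoint, against 2827, 3231 and 5835 CPM in the Cip2a-/- and 2229.8, 5225 and 3204 CPM in the WT glands at 2 weeks. Untreated glands had 941, 2535 and 2417 CPM in Cip2a-/- and 1209.8, 1756 and 1937 CPM in WT. The endpoint libraries were all below the 2-week libraries, and Cip2a-/- endpoint 1 and WT endpoint 3 were the highest among them. The log2 fold change was -2.78 ± 0.57 (SE; edgeR adjusted p = 0.0103).

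Type I collagen, the main fibre protein of most connective tissue, is built from the chains of Col1a1 and Col1a2. Col1a1 had 480.0, 79.5 and 203 CPM in the Cip2a-/- and 75.3, 74.6 and 502 CPM in the WT glands at the endpoint, against 481, 868 and 1619 CPM in the Cip2a-/- and 490.1, 1155 and 758 CPM in the WT glands at 2 weeks. Its levels in untreated glands were 268, 750.0 and 924 CPM in Cip2a-/- and 507, 823 and 879 CPM in WT. The conditions overlapped: Cip2a-/- endpoint 1 and WT endpoint 3 reached the level of the lowest 2-week libraries, and the other 4 endpoint libraries lay well below. The log2 fold change of Col1a1 was -1.92 ± 0.57 (SE; edgeR adjusted p = 0.0389). For Col1a2 the values were 578, 149 and 532 CPM in the Cip2a-/- and 117, 157 and 584 CPM in the WT glands at the endpoint, against 567, 933 and 1867 CPM in the Cip2a-/- and 695, 1636 and 912 CPM in the WT glands at 2 weeks. Untreated glands had 400.0, 829.6 and 988 CPM in Cip2a-/- and 530.5, 783 and 863 CPM in WT for this gene. Again Cip2a-/- endpoint 1 and WT endpoint 3, and here Cip2a-/- endpoint 3 too, stood close to the lower 2-week libraries, and the fold change was -1.67 ± 0.47 (SE; edgeR adjusted p = 0.0325).

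Type V collagen sits inside type I fibrils and sets their diameter. Col5a2 had 187, 122 and 102 CPM in the Cip2a-/- and 42.7, 111 and 126 CPM in the WT glands at the endpoint, against 334, 459.8 and 699 CPM in the Cip2a-/- and 318, 524 and 384 CPM in the WT glands at 2 weeks. Untreated glands held 199, 353 and 413 CPM in Cip2a-/- and 179, 365 and 411 CPM in WT. All endpoint libraries were below all 2-week libraries, and the change was -1.99 ± 0.32 (SE; edgeR adjusted p = 0.00459), the smallest p among the collagen genes. Col5a1 had 231, 183 and 106 CPM in the Cip2a-/- and 34.7, 118 and 179 CPM in the WT glands at the endpoint, against 282, 458 and 711 CPM in the Cip2a-/- and 327, 458 and 375 CPM in the WT glands at 2 weeks. Its untreated levels were 206, 322 and 342 CPM in Cip2a-/- and 263, 385 and 474 CPM in WT. Here too the endpoint and 2-week libraries did not overlap, with WT endpoint 1 far the lowest, and the change was -1.64 ± 0.35 (SE; edgeR adjusted p = 0.0117). The remaining type V chain, Col5a3, had 524, 251 and 130.0 CPM in the Cip2a-/- and 65.1, 184 and 329.8 CPM in the WT glands at the endpoint, against 506, 983 and 1191 CPM in the Cip2a-/- and 736, 817 and 809 CPM in the WT glands at 2 weeks. In untreated glands it had 370.4, 641 and 627 CPM in Cip2a-/- and 568, 598 and 852 CPM in WT. Only Cip2a-/- endpoint 1 reached into the 2-week range, and the change was -1.80 ± 0.39 (SE; edgeR adjusted p = 0.0121).

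The remaining 4 tested fibrillar genes, Col11a1, Col11a2, Col24a1 and Col27a1, are weakly expressed in the gland, with means from 1.74 to 26.1 CPM, and edgeR called none of them, with Col11a2 higher at an unadjusted p under 0.05, a threshold at which 15.6% of all genes were higher and 14.6% lower. Col11a2, best known from cartilage, had a change of 0.67 ± 0.29 (SE; edgeR adjusted p = 0.13).

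Col4a1 and Col4a2 encode the chains that form the common type IV collagen of basement membranes. They lie head to head on chromosome 8 in the GRCm38 build and share a promoter between them. RefSeq places their start sites 21 bp apart on opposite strands, so the promoter windows of the pair, each from 250 bases before to 50 after the start, share 78 bp. The windows are chr8:11312777-11313076 on the minus strand for Col4a1 and chr8:11312555-11312854 on the plus strand for Col4a2, shown here because both genes of the pair fell; capitals mark the shared 78 bp, which the lines give as opposite strands (RefSeq, GRCm38.p6).
Col4a1: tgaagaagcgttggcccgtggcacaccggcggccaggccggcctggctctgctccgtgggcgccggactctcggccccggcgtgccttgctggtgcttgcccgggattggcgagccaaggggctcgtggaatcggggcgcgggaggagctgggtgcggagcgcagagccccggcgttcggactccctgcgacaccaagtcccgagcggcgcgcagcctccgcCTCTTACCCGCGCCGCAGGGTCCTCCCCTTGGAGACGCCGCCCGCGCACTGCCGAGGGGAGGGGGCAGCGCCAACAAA
Col4a2: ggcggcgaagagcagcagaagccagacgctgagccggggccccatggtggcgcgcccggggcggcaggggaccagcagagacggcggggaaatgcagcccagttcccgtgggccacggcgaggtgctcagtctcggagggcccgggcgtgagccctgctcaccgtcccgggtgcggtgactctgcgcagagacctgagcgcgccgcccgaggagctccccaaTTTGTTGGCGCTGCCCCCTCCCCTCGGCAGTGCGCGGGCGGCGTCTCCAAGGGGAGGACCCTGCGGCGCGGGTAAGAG

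Col4a1 had 1397, 1072 and 938 CPM in the Cip2a-/- and 472, 871 and 1217 CPM in the WT glands at the endpoint, against 1599.6, 2636 and 3499 CPM in the Cip2a-/- and 2459.6, 2246 and 2096 CPM in the WT glands at 2 weeks. Untreated glands had 1130.4, 2073 and 1610.1 CPM in Cip2a-/- and 1401, 2060.5 and 2199 CPM in WT. The endpoint libraries were all below the 2-week ones, with a smaller gap than for Col3a1, and the change was -1.30 ± 0.26 (SE; edgeR adjusted p = 0.0102). Col4a2 had 1101, 1012 and 724 CPM in the Cip2a-/- and 418, 859 and 1014 CPM in the WT glands at the endpoint, against 1004, 1982 and 2549 CPM in the Cip2a-/- and 1677, 1640.5 and 1472 CPM in the WT glands at 2 weeks. In untreated glands the values were 858, 1467 and 1214 CPM in Cip2a-/- and 1029, 1499.5 and 1783 CPM in WT. Cip2a-/- endpoint 1 and 2 and WT endpoint 3 overlapped the lowest 2-week library, and the change was -1.01 ± 0.27 (SE; edgeR adjusted p = 0.0262). The annotated spans of the pair overlap at their starts, and the sources used here do not give the strand setting of the counting, so reads from the overlap cannot be assigned to a chain with certainty.

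The other type IV chains were scarcer and edgeR called 0 of 4, with Col4a4 lower at an unadjusted p under 0.05. At that threshold 14.6% of all genes were lower. Col4a3 and Col4a4, a head-to-head pair on chromosome 1 known from the kidney glomerulus, stayed at or below 2.21 CPM in every library. Col4a3 had 0.551, 0.537 and 1.83 CPM in the Cip2a-/- and 0.824, 0.348 and 0.190 CPM in the WT glands at the endpoint, against 1.30, 1.02 and 1.44 CPM in the Cip2a-/- and 2.21, 1.30 and 0.294 CPM in the WT glands at 2 weeks. It had 1.73, 1.10 and 1.85 CPM in Cip2a-/- and 0.954, 1.45 and 1.05 CPM in WT untreated glands. Col4a4 had 1.50, 0.860 and 2.21 CPM in the Cip2a-/- and 0.444, 0.271 and 0.442 CPM in the WT glands at the endpoint, against 1.30, 1.35 and 1.58 CPM in the Cip2a-/- and 1.44, 1.21 and 1.09 CPM in the WT glands at 2 weeks. It had 1.85, 0.990 and 1.74 CPM in Cip2a-/- and 1.91, 1.79 and 2.10 CPM in WT untreated glands. For Col4a4 the 3 WT endpoint libraries were the lowest of all 18, while for Col4a3 the 3 lowest were WT endpoint 2 and 3 and WT 2 weeks 3. The averaged change of Col4a4, which DESeq2 called, was -0.79 ± 0.27 (SE; edgeR adjusted p = 0.0633). Their low read numbers (382 reads of Col4a3 and 467 of Col4a4 in all libraries) limit how small a difference could be detected.

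Col4a5 and Col4a6, paired on the X chromosome with start sites 1343 bp apart, take part in the type IV collagen of skin, smooth muscle and some epithelia. Col4a6 had 56.2, 31.1 and 115 CPM in the Cip2a-/- and 0.760, 74.9 and 6.07 CPM in the WT glands at the endpoint, against 33.1, 23.6 and 27.4 CPM in the Cip2a-/- and 56.9, 47.0 and 34.9 CPM in the WT glands at 2 weeks. Untreated glands had 27.2, 51.6 and 22.4 CPM in Cip2a-/- and 13.0, 46.3 and 48.9 CPM in WT. Within the endpoint the levels ran from 0.760 CPM in WT endpoint 1 to 115 CPM in Cip2a-/- endpoint 3, a wider spread than at 2 weeks. Col4a5 had 28.2, 20.6 and 54.1 CPM in the Cip2a-/- and 1.96, 34.4 and 5.88 CPM in the WT glands at the endpoint, against 33.6, 21.6 and 26.0 CPM in the Cip2a-/- and 53.1, 48.4 and 29.1 CPM in the WT glands at 2 weeks. Its untreated levels were 23.6, 38.8 and 17.1 CPM in Cip2a-/- and 9.72, 25.0 and 31.6 CPM in WT. WT endpoint 1 and 3 were the lowest of all 18 libraries for both genes, and these were the libraries with luminal marker sums of 26.5 and 624 CPM.

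Type VI collagen assembles from the Col6a1 and Col6a2 chains with one more, usually that of Col6a3, and is abundant around fat cells. All of these were lower at the endpoint, without overlap between the 6 endpoint and 6 2-week libraries. Col6a3 had 325, 65.1 and 80.4 CPM in the Cip2a-/- and 56.1, 103 and 127 CPM in the WT glands at the endpoint, against 378, 587 and 766 CPM in the Cip2a-/- and 416, 554 and 599 CPM in the WT glands at 2 weeks. It had 246, 429 and 397 CPM in Cip2a-/- and 246, 316 and 359 CPM in WT untreated glands. Cip2a-/- endpoint 1 was the highest endpoint library by a wide margin, and the change was -2.17 ± 0.37 (SE; edgeR adjusted p = 0.00585). Col6a2 had 345, 151 and 149 CPM in the Cip2a-/- and 92.9, 148 and 239 CPM in the WT glands at the endpoint, against 367, 830.2 and 1141 CPM in the Cip2a-/- and 459, 633 and 558 CPM in the WT glands at 2 weeks. In untreated glands it stood at 254, 567 and 674 CPM in Cip2a-/- and 463, 579.9 and 625 CPM in WT. WT endpoint 1 was lowest and Cip2a-/- endpoint 1 highest at the endpoint, and the change was -1.82 ± 0.34 (SE; edgeR adjusted p = 0.00806). Col6a1 had 370.0, 254 and 357 CPM in the Cip2a-/- and 106, 319 and 303 CPM in the WT glands at the endpoint, against 447, 874 and 1249 CPM in the Cip2a-/- and 535, 712 and 635 CPM in the WT glands at 2 weeks. Untreated levels were 318, 575 and 709.6 CPM in Cip2a-/- and 491, 661 and 730.3 CPM in WT. WT endpoint 1 was again the lowest library, and the change was -1.38 ± 0.30 (SE; edgeR adjusted p = 0.0129).

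The alternatives to Col6a3 in type VI were scarce, with mean levels of 4.28 CPM for Col6a4 and 3.37 CPM for Col6a6. Col6a6 had 1.60, 0.430 and 1.05 CPM in the Cip2a-/- and 1.84, 0.658 and 3.41 CPM in the WT glands at the endpoint, against 4.52, 1.82 and 5.43 CPM in the Cip2a-/- and 3.03, 8.27 and 4.33 CPM in the WT glands at 2 weeks. It had 5.62, 2.48 and 6.95 CPM in Cip2a-/- and 3.77, 2.68 and 2.71 CPM in WT untreated glands. WT endpoint 3 and, narrowly, WT endpoint 1 overlapped the 2-week libraries, and the change was -1.67 ± 0.45 (SE; edgeR adjusted p = 0.029). Col6a5 was not called, at 1.32 ± 0.72 (SE; edgeR adjusted p = 0.234), and its 15.8 CPM in WT endpoint 1 compared with at most 1.14 CPM in the other 5 endpoint libraries. Without WT endpoint 1 its log2 fold change was -0.17. Col6a4 had 0.190 to 11.4 CPM at the endpoint, against 0.930 to 6.79 CPM at 2 weeks and 2.26 to 10.1 CPM in untreated glands. Its conditions overlapped and it was not called, at 0.38 ± 0.72 (SE; edgeR adjusted p = 0.748).

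Col15a1, a multiplexin chain of the zone between basement membranes and fibrils, had 409.7, 100.1 and 36.3 CPM in the Cip2a-/- and 56.1, 52.4 and 104 CPM in the WT glands at the endpoint, against 365, 831 and 1074 CPM in the Cip2a-/- and 425, 714 and 529 CPM in the WT glands at 2 weeks. Untreated glands had 371, 622 and 684 CPM in Cip2a-/- and 615, 661 and 909 CPM in WT. Cip2a-/- endpoint 1 alone reached the range of the other conditions, and the other 5 endpoint libraries were at 104 CPM or less. Col15a1 changed by -2.51 ± 0.48 (SE; edgeR adjusted p = 0.0082). The other multiplexin, Col18a1, the source of endostatin, was not called, with an edgeR adjusted p of 0.11 and a log2 fold change of -0.88. Col8a1, a short network-forming chain made by vessel wall cells, had 10.4, 13.5 and 7.91 CPM in the Cip2a-/- and 4.88, 3.21 and 10.8 CPM in the WT glands at the endpoint, against 16.7, 24.0 and 14.8 CPM in the Cip2a-/- and 31.7, 35.9 and 17.1 CPM in the WT glands at 2 weeks. It had 26.7, 15.8 and 12.1 CPM in Cip2a-/- and 10.9, 21.4 and 20.9 CPM in WT untreated glands. Its endpoint and 2-week libraries did not overlap, and the change was -1.49 ± 0.32 (SE; edgeR adjusted p = 0.0121). The related chain Col8a2 was scarce, with 0.127 to 5.96 CPM at the endpoint and at most 2.9 CPM at 2 weeks, and was not called, at 0.53 ± 0.57 (SE; edgeR adjusted p = 0.556).

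EdgeR called 0 of 9 FACIT genes, with 1 lower and 0 higher at an unadjusted p under 0.05, and 6 of the 9 log2 fold changes were positive, from -1.25 (Col14a1) to 1.60 (Col9a2). Over all genes tested, edgeR called 6.94% lower and 6.41% higher, and 14.6% were lower and 15.6% higher at the unadjusted threshold. Positive log2 fold changes were found in 8301 of all 15482 genes. Col14a1, a FACIT chain of dense connective tissue, had 53.3, 18.8 and 63.7 CPM in the Cip2a-/- and 12.4, 20.2 and 48.6 CPM in the WT glands at the endpoint, against 53.1, 80.8 and 166 CPM in the Cip2a-/- and 37.6, 90.0 and 79.3 CPM in the WT glands at 2 weeks. Its change of -1.25 ± 0.40 (SE; edgeR adjusted p = 0.0549) missed the threshold in edgeR and was called by DESeq2 and limma voom. The 4 transmembrane collagens, among them Col17a1 of epithelial hemidesmosomes, all had positive log2 fold changes of 0.26 to 0.93. EdgeR called 0 of them, with 1 higher at an unadjusted p under 0.05, beside the same shares of all genes. Col13a1, a transmembrane collagen of cell adhesion sites and of the junction of nerve and muscle, had the smallest p in the upward direction, at 0.93 ± 0.35 (SE; edgeR adjusted p = 0.0933). It had 10.8, 5.05 and 12.8 CPM in the Cip2a-/- and 3.80, 7.04 and 2.59 CPM in the WT glands at the endpoint, against 1.03, 1.82 and 3.34 CPM in the Cip2a-/- and 7.56, 4.74 and 4.75 CPM in the WT glands at 2 weeks, with the highest value in Cip2a-/- endpoint 3 and the lowest in Cip2a-/- 2 weeks 1, and DESeq2 called it higher. Col23a1, also a transmembrane collagen, had 7.86 to 13.0 CPM at the endpoint and 6.26 to 12.9 CPM at 2 weeks and was not called, at 0.26 ± 0.23 (SE; edgeR adjusted p = 0.478). Col7a1, the chain of the anchoring fibrils under epithelia, had a log2 fold change of 0.76 and was not called.

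Split by genotype, the endpoint and 2-week libraries gave 0 called collagen genes in edgeR in either genotype, where 0.0% of all genes were called in Cip2a-/- glands and 0.31% in WT glands. At an unadjusted p under 0.05, 16 collagen genes were lower and 1 higher in Cip2a-/- glands, where 11.9% of all genes were lower and 11.7% higher. In WT glands 20 were lower and 3 higher, where 9.69% of all genes were lower and 12.8% higher. The DESeq2 Wald test called 11 collagen genes in Cip2a-/- and 13 in WT glands (11.6% and 10.1% of all genes), and limma voom called 0 in each (0.00646% and 0.42%). The fibrillar median was -1.52 in Cip2a-/- glands and -1.84 in WT glands. The type IV median was -0.13 in Cip2a-/- glands, with 3 of 6 genes positive, and -1.44 in WT glands, with 0 of 6 positive. That of the other collagens was 0.05 in Cip2a-/- and -0.23 in WT glands, against -0.04 and 0.08 over all genes.

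Markers of some of the cells that make collagen also differed between these conditions. The 10 fibroblast markers, none of them at 0 in any library, summed to 584 to 3113 CPM at the endpoint, against 1606 to 4127 CPM at 2 weeks and 1484 to 3277 CPM in untreated glands. In Cip2a-/- glands the median sum was 2227 CPM at the endpoint, 2360 CPM at 2 weeks and 2126 CPM in untreated glands. In WT glands these medians were 854, 2652 and 2526 CPM, so the lower median at the endpoint was seen in WT. Of the 10 fibroblast markers, Dpt, Fap, Lum and Pdgfra were called lower at the endpoint than at 2 weeks with the genotypes averaged. All 10 had negative log2 fold changes, with a median of -0.95. Over all genes tested, 6.94% were called lower and 6.41% higher, and 7181 of 15482 had negative log2 fold changes. In bulk tissue, fewer cells of a type and less RNA per cell cannot be told apart. The part of these markers in the fall of the collagens was not tested. The endothelial sum was 942 to 3097 CPM at the endpoint and 784 to 1767 CPM at 2 weeks, with 0 of 7 markers called in edgeR. White adipocyte markers (8 genes) had a median sum of 27115 CPM at the endpoint and 24199 CPM at 2 weeks, so it was not lower. Pericyte markers (6 genes) had medians of 447 and 626 CPM, and both lists overlapped between the conditions.

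Libraries also differed in how level depended on mRNA length. The slope of the log2 level on the log2 length, relative to the mean of all libraries, was -0.197 to -0.0164 in the 6 endpoint libraries, against 0.00067 to 0.159 at 2 weeks and -0.122 to 0.134 in untreated glands. The tested collagen genes are long, with a median mRNA of 6119 bp against 3098 bp over 13736 tested genes. After each library's trend with length and GC content was removed, 12 collagen genes were called lower at the endpoint than at 2 weeks, without Col1a1 and Col6a6. In that fit 567 of all 15482 genes tested were called lower and 660 higher. The column headers of the table carry a number per library that is 5144 to 5185 in the 2-week libraries and 3925 to 5023 in the others, but the sources used here do not say what it stands for, and its part in the result cannot be told apart from that of the 2-week condition.

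Against untreated glands, 1 collagen gene was called at the endpoint. Col15a1 changed by -2.49 ± 0.48 (SE; edgeR adjusted p = 0.0495), where 0.226% of all genes were called lower and 0.252% in either direction. The call was lost without any single one of the 12 endpoint and untreated libraries except WT endpoint 1, without which Col5a2 was called too, and Cip2a-/- endpoint 1, without which 5 genes were called (Col15a1, Col3a1, Col5a2, Col6a2 and Col6a3). Calls over all genes rose as well, from 35 of 15482 lower with all libraries. They were 120 of 15746 lower without WT endpoint 1 and 121 of 15743 lower without Cip2a-/- endpoint 1. At an unadjusted p under 0.05, 16 collagen genes were lower and 1 was higher, where 7.4% of all genes were lower and 9.51% higher. Next after Col15a1 came Col5a2 at -1.50 ± 0.31 (SE; edgeR adjusted p = 0.0693) and Col6a2 at -1.50 ± 0.34 (SE; edgeR adjusted p = 0.0762). In the upward direction the smallest p were those of Col11a2 at 0.71 ± 0.29 (SE; edgeR adjusted p = 0.235), Col12a1 at 0.54 ± 0.27 (SE; edgeR adjusted p = 0.324) and Col9a1 at 1.10 ± 1.14 (SE; edgeR adjusted p = 0.667). Class medians were -1.16 for fibrillar, -0.72 for type IV and -0.01 for other collagens (-0.94 without WT endpoint 2), against 0.02 for all genes. No collagen gene had all 6 endpoint libraries below or above all 6 untreated ones, where 0.898% of all genes had them below and 0.607% above. The DESeq2 Wald test called 13 collagen genes here, 5.46% of all genes being called by it, and limma voom called 1 (0.149% of all genes), again Col15a1.

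Within each genotype, edgeR called 0 collagen genes at the endpoint against untreated glands (0.0% of all genes in Cip2a-/- and 0.0323% in WT). At an unadjusted p under 0.05 the counts were 8 lower and 1 higher in Cip2a-/- glands, where 7.0% of all genes were lower and 7.65% higher. In WT glands they were 15 lower and 2 higher, where 5.47% of all genes were lower and 6.58% higher. DESeq2 called Col6a6 in Cip2a-/- glands and 7 collagen genes in WT glands (1.8% and 1.98% of all genes), and limma voom called 0 in each (0.0% and 0.0258%).

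At 2 weeks after DMBA, 0 collagen genes were called against untreated glands by edgeR, DESeq2 and limma voom with the genotypes averaged, where edgeR called 0.0258% of all genes in either direction, 0.0194% higher and 0.00646% lower, DESeq2 0.568% and limma voom 0.0129%. At an unadjusted p under 0.05, 2 collagen genes were higher and 1 lower, where 3.4% of all genes were higher and 3.16% lower, so the collagen counts lay near the share of all genes. The smallest upward p was that of Col12a1, a FACIT chain found on fibrils of tissues under tension, at 1.00 ± 0.27 (SE; edgeR adjusted p = 0.418). Col12a1 had 28.8, 13.1 and 16.6 CPM in Cip2a-/- and 13.8, 9.25 and 16.6 CPM in WT glands at 2 weeks, against 9.80, 7.48 and 7.82 CPM in Cip2a-/- and 6.20, 9.10 and 7.86 CPM in WT untreated glands. Of the 6 libraries at 2 weeks, 5 were above every untreated one. Col28a1 followed at 0.91 ± 0.40 (SE; edgeR adjusted p = 0.746) and Col6a3 at 0.73 ± 0.36 (SE; edgeR adjusted p = 0.749). In the downward direction the smallest p belonged to Col13a1 at -0.95 ± 0.35 (SE; edgeR adjusted p = 0.718), Col6a5 at -1.27 ± 0.71 (SE; edgeR adjusted p = 0.761) and Col27a1 at -0.45 ± 0.25 (SE; edgeR adjusted p = 0.761). Class medians were 0.38 for fibrillar, 0.22 for type IV and -0.10 for other collagens, against -0.00 for all genes. No collagen gene separated all 6 libraries of one condition from all 6 of the other, as 0.711% of all genes did upward and 0.284% downward. Taken by genotype, edgeR called 0 collagen genes in Cip2a-/- glands (0.0129% of all genes) and 0 in WT glands (0.0%), and at an unadjusted p under 0.05 there were 2 higher and 3 lower in Cip2a-/- glands (2.07% and 2.47% of all genes) and 0 in WT glands (2.91% of all genes higher and 1.32% lower).

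Loss of Cip2a was set against WT in each condition and averaged over the conditions. EdgeR called 0 collagen genes in untreated glands (0.0% of all genes), 0 at 2 weeks (0.00646%), 0 at the endpoint (0.00646%) and 0 in the average (0.00646%). At an unadjusted p under 0.05 there were 0 in untreated glands (2.27% of all genes in either direction), 1 higher and 1 lower at 2 weeks (2.44%), 3 higher and 2 lower at the endpoint (10.7%), and 1 higher in the average (0.917%). The endpoint count of 5 of 41 was near the share of all genes. Limma voom called 0 in each, and DESeq2 called only Col4a4 at the endpoint, where it called 0.568% of all genes. In the average the smallest p upward were those of Col4a4 at 0.61 ± 0.22 (SE; edgeR adjusted p = 1.00), Col4a3 at 0.50 ± 0.39 (SE; edgeR adjusted p = 1.00) and Col15a1 at 0.47 ± 0.37 (SE; edgeR adjusted p = 1.00). Downward they were those of Col20a1 at -0.21 ± 0.14 (SE; edgeR adjusted p = 1.00), Col6a5 at -0.74 ± 0.58 (SE; edgeR adjusted p = 1.00) and Col27a1 at -0.25 ± 0.21 (SE; edgeR adjusted p = 1.00). Class medians of the average were 0.15, 0.22 and 0.06 for fibrillar, type IV and other collagens, against 0.01 for all genes.

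At the endpoint, all 6 type IV genes had higher fitted levels in Cip2a-/- than in WT glands, with log2 fold changes from 0.31 to 1.98 and a median of 1.19, while the fibrillar median was 0.41, that of other collagens 0.43 and that of all genes -0.02. Col4a4 had 1.50, 0.860 and 2.21 CPM in Cip2a-/- endpoint glands and 0.444, 0.271 and 0.442 CPM in WT endpoint glands. Its log2 fold change was 1.98 ± 0.40 (SE; edgeR adjusted p = 0.458), so edgeR did not call it. The difference between the genotypes in the response from untreated to endpoint was 2.32 ± 0.54 (SE; edgeR adjusted p = 0.49) for Col4a4. EdgeR called no such difference for any collagen gene (0.0% of all genes at either time), and at an unadjusted p under 0.05 there were 1 lower at 2 weeks (2.9% of all genes in either direction) and 2 higher and 2 lower at the endpoint (10%), an endpoint count near the share of all genes. For the endpoint, limma voom called 0 and DESeq2 called Col4a4, among 0.233% of all genes. The epithelial marker sums of WT endpoint 1 and 3 given above lie beside the low Col4a5 and Col4a6 levels in this comparison, and their part in it was not tested.

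A further set of collagen genes varied widely among the endpoint libraries. Col4a5, Col4a6, Col7a1, Col9a2, Col9a3, Col16a1 and Col17a1, singled out after their values were seen, were low in WT endpoint 1 and 3 and high in WT endpoint 2 and in Cip2a-/- endpoint 1 and 3. Col17a1 had 69.7, 24.8 and 157 CPM in Cip2a-/- and 2.03, 103 and 6.70 CPM in WT endpoint glands. Col9a2, a FACIT chain best known from cartilage, had 27.7, 7.68 and 60.4 CPM in Cip2a-/- and 0.760, 100.4 and 1.90 CPM in WT endpoint glands. Basal epithelial markers summed to 2263, 1066 and 1926 CPM in the Cip2a-/- and 249, 2128 and 367 CPM in the WT endpoint glands, so WT endpoint 1 and 3, low in these collagens, were also the lowest in basal markers. None of these 7 genes was called by edgeR in any comparison over the 18 libraries. Without WT endpoint 2, the WT endpoint library high in them, edgeR called Col4a5 lower at the endpoint than at 2 weeks in the average. Its log2 fold change was -1.56, where 1204 of 15701 genes tested were called lower. In WT glands alone edgeR then called Col4a5, Col4a6 and Col17a1 lower, at -3.47, -3.76 and -3.03. The number of all genes called in that WT comparison is not given here, so these calls cannot be set against it. The genes were picked with that library seen to be high, so leaving it out lowers their WT endpoint level by the choice itself. These calls are therefore given as a description only. The part of epithelial content in their spread was not tested.

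**Figure D4:**
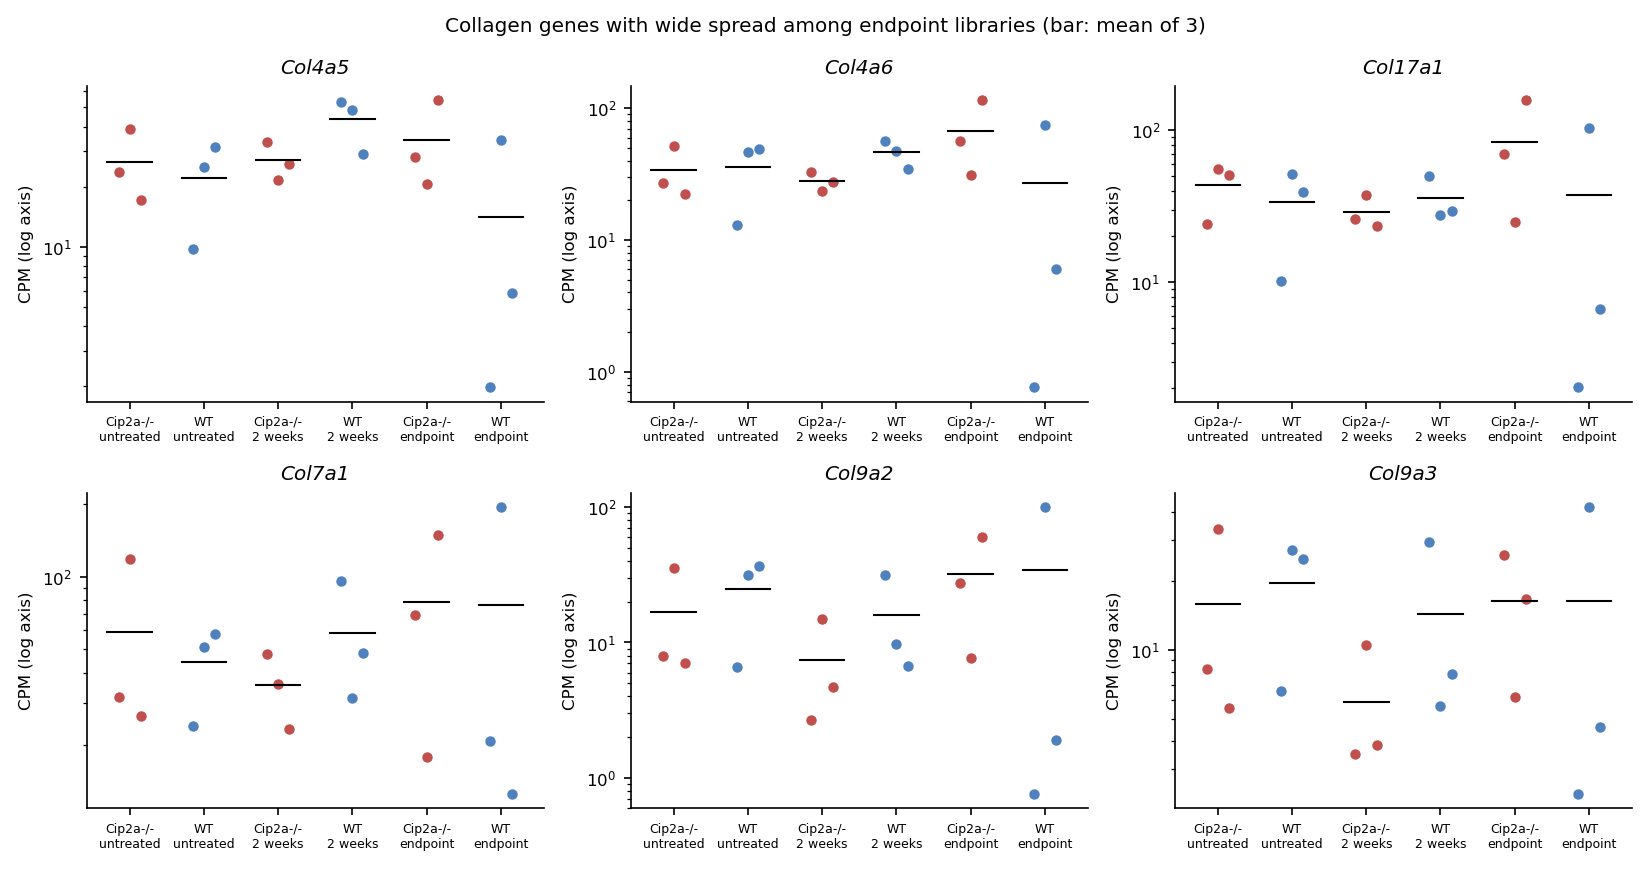
Level in CPM (log axis) of Col4a5, Col4a6, Col17a1, Col7a1, Col9a2 and Col9a3 in each library; points are libraries, bars the mean of 3, red Cip2a-/- and blue WT. In the WT endpoint column a single library stands high in each panel, and that library has 103 CPM of Col17a1 where the others have 2.03 and 6.70 CPM.

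Ratios of reads between chains of the same library do not depend on the scaling of the libraries. The ratios described were chosen after their values were seen, so they are given as a description, with no test, and their log2 differences are means over the genotypes. They are read ratios, so a value above 1 does not mean more molecules of the chain.

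The Col3a1 to Col1a1 ratio was highest at 2 weeks. It was 3.51, 3.38 and 2.62 in Cip2a-/- and 2.39, 2.13 and 2.21 in WT untreated glands. At 2 weeks it was 5.87, 3.72 and 3.60 in Cip2a-/- and 4.55, 4.53 and 4.23 in WT glands, and at the endpoint 2.73, 2.26 and 1.55 in Cip2a-/- and 2.15, 3.26 and 2.17 in WT glands. All 6 libraries at 2 weeks lay above all untreated and all endpoint ones. The log2 difference was 0.72 between 2 weeks and untreated glands, -0.93 between the endpoint and 2 weeks and -0.21 between the endpoint and untreated glands. After the length and GC trend was removed, the fitted log2 differences were 0.67 and -0.75, against 0.70 and -0.86 before.

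Promoter windows are given for Col1a2 (chr6:4505368-4505667, plus strand) and Col3a1 (chr1:45311288-45311587, plus strand), the type I and type III genes that the RefSeq table (GRCm38.p6) holds, since both fell at the endpoint. Capitals mark matches to the TATA box letters TATAAA, the CCAAT box and the GC box letters GGGCGG, searched on both strands, and no match overlaps another. Relative to the start site, the Col1a2 window holds the CCAAT letters from -109 and, on the other strand, from 1, and the GC box letters from -205 and -188. The Col3a1 window holds the TATA box letters from -117. These are letter matches, and whether any of them works as a promoter box was not tested.
Col1a2: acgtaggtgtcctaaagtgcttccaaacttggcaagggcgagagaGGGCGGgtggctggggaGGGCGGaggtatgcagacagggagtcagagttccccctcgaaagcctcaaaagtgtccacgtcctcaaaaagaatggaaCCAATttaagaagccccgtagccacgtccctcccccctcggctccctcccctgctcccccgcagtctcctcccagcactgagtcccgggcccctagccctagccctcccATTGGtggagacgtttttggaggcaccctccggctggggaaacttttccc
Col3a1: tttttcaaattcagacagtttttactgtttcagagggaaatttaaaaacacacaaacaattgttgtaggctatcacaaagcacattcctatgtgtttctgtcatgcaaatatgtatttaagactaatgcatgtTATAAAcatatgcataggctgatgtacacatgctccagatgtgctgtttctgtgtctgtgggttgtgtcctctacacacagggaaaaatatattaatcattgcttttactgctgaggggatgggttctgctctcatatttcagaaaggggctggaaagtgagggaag

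The TATA box letters are found in 13.6% of all 32851 mouse windows, the CCAAT box in 37.4% and the GC box letters in 35.7%. Over the 38 windows of 35 collagen genes the TATA letters are in 5, the CCAAT box in 13 and the GC letters in 23, and over the 13 windows of 12 called genes they are in 1, 4 and 9.

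Within type IV collagen, the Col4a1 to Col4a2 ratio was 1.27, 1.06 and 1.30 in Cip2a-/- and 1.13, 1.01 and 1.20 in WT endpoint glands, against 1.59, 1.33 and 1.37 in Cip2a-/- and 1.47, 1.37 and 1.42 in WT glands at 2 weeks. It was 1.32, 1.41 and 1.33 in Cip2a-/- and 1.36, 1.37 and 1.23 in WT untreated glands. The endpoint lay below 2 weeks without overlap, with a log2 difference of -0.30. Against untreated glands the endpoint had a log2 difference of -0.21, with overlap. The Col4a6 to Col4a5 ratio was 0.972 to 1.20 at 2 weeks, against 1.15 to 1.86 in untreated glands, a log2 difference of -0.41 with overlap, and spread from 0.387 to 2.18 at the endpoint.

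The ratio of Col1a1 to Col1a2 was 0.830, 0.533 and 0.382 in Cip2a-/- and 0.645, 0.475 and 0.860 in WT endpoint glands, against 0.670 to 1.05 over the 6 untreated libraries. Its log2 difference was -0.62, with overlap. That of Col6a3 to Col6a1 between the endpoint and 2 weeks was -0.96, also with overlap.

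**Figure D5:**
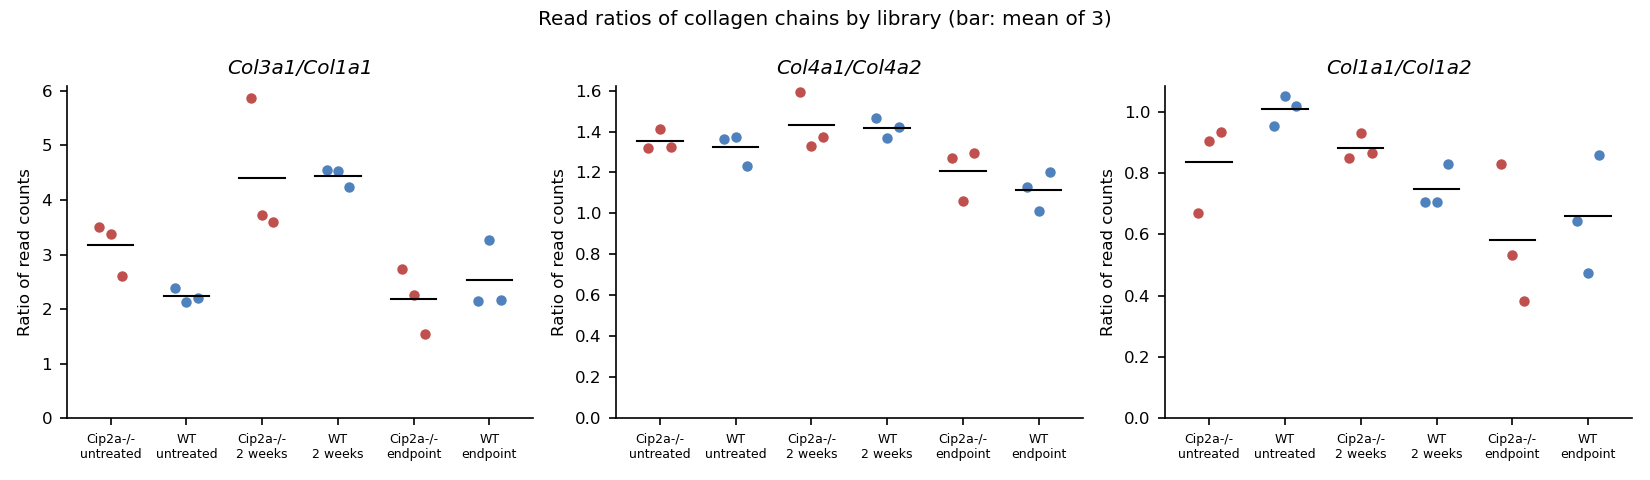
Read ratios of Col3a1 to Col1a1, Col4a1 to Col4a2 and Col1a1 to Col1a2 in each library; points are libraries, bars the mean of 3, red Cip2a-/- and blue WT, and each axis starts at 0. The 2-week libraries stand above all others for Col3a1 to Col1a1, and the endpoint libraries below the 2-week ones for Col4a1 to Col4a2.

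Genes that make, mature or bind collagen were followed from lists. Of 21 biosynthesis genes, all tested, 7 fell at the endpoint against 2 weeks and 0 rose (edgeR; 6.94% of all genes fell and 6.41% rose), with a median log2 fold change of -0.27, against 0.05 over all genes. Serpinh1, the collagen-specific chaperone HSP47, changed by -1.32 ± 0.31 (SE; edgeR adjusted p = 0.0163), with 123 to 511 CPM and a median of 222 CPM at the endpoint, against 523 to 1042 CPM and a median of 639 CPM at 2 weeks. No endpoint library reached the lowest 2-week library for this gene, as held for 3.49% of all genes tested. The collagen-binding matricellular protein gene Sparc changed by -1.31 ± 0.34 (SE; edgeR adjusted p = 0.0234), and Creb3l1, a transcription factor that activates type I collagen genes in bone, by -1.06 ± 0.33 (SE; edgeR adjusted p = 0.0471). The collagen galactosyltransferase Colgalt2 (listed as Glt25d2) changed by -0.87 ± 0.21 (SE; edgeR adjusted p = 0.0189) and the folding enzyme Fkbp14 by -0.67 ± 0.20 (SE; edgeR adjusted p = 0.0373). The prolyl hydroxylase subunit P4ha1 changed by -0.59 ± 0.19 (SE; edgeR adjusted p = 0.0497) and Mia3, needed to load collagen into transport carriers, by -0.30 ± 0.07 (SE; edgeR adjusted p = 0.0173).

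Of 15 maturation genes tested (16 listed), 3 fell and 0 rose (6.94% and 6.41% of all genes), with a median of -0.66. These were the cross-linking enzymes Loxl2, at -1.43 ± 0.31 (SE; edgeR adjusted p = 0.0127), and Loxl1, at -1.23 ± 0.38 (SE; edgeR adjusted p = 0.0464), and Pcolce, the enhancer of the protease that trims procollagen, at -1.01 ± 0.29 (SE; edgeR adjusted p = 0.0366). Loxl2 had 8.11 to 54.8 CPM at the endpoint, against 63.0 to 150 CPM at 2 weeks, so the conditions did not overlap. The endpoint lay below 2 weeks without overlap in 3.49% of all genes tested.

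Of 10 collagen receptor genes tested (11 listed), 3 fell and 1 rose (6.94% and 6.41% of all genes), with a median of -0.66. Ddr2, the discoidin domain receptor of mesenchymal cells for fibrillar collagen, had 27.2 to 79.8 CPM at the endpoint, against 107 to 163 CPM at 2 weeks and 80.4 to 123 CPM in untreated glands. The endpoint was thus below both other conditions in every library, narrowly so for untreated glands, with log2 fold changes of -1.38 ± 0.19 (SE; edgeR adjusted p = 0.00271) against 2 weeks and of -0.99 ± 0.19 (SE; edgeR adjusted p = 0.0495) against untreated glands. Of all genes tested, 3.49% had every endpoint library below every 2-week one, and 0.898% had them below every untreated one. The integrin chains Itga1 and Itgb1 changed by -0.86 ± 0.22 (SE; edgeR adjusted p = 0.0215) and -0.45 ± 0.13 (SE; edgeR adjusted p = 0.03). Gpr56, an adhesion receptor that binds type III collagen, rose, at 1.29 ± 0.35 (SE; edgeR adjusted p = 0.0294), with 68.4 to 735 CPM at the endpoint, against 75.1 to 173 CPM at 2 weeks, and the conditions overlapped.

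Ddr2 was the single gene of these lists that edgeR and limma voom called at the endpoint against untreated glands, while DESeq2 called Ddr2, Mia3 and Mrc2. Those with the smallest p otherwise were Mia3 and Serpinh1 among biosynthesis genes, with log2 fold changes of -0.24 and -0.92 (edgeR adjusted p = 0.126 and 0.157), Loxl1 and Tgm2 among maturation genes, at -1.06 and 1.04 (edgeR adjusted p = 0.187 and 0.199), and the collagen uptake receptor Mrc2 at -1.08 (edgeR adjusted p = 0.139). At 2 weeks against untreated glands 0 genes of these lists were called by edgeR, DESeq2 or limma voom, with 3 biosynthesis, 1 maturation and 1 receptor gene higher and 0 lower at an unadjusted p under 0.05, where 3.4% of all genes were higher and 3.16% lower. The smallest p there were those of Plod2 and Plod1, lysyl hydroxylases, with log2 fold changes of 0.86 and 0.33, of Loxl2 and fibronectin (Fn1) at 0.77 and 0.67, and of Itga1 and Ddr2 at 0.57 and 0.39. Between the genotypes 0 were called in the average by the same tools, and 0 at an unadjusted p under 0.05, where P4ha3 and Plod2 at 1.15 and 0.37, Adamts14 and Pcolce at 0.26 and 0.25, and Ddr2 and Itgb1 at 0.22 and 0.08 had the smallest p.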

How the data were processed

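RNA of mammary gland tissue was isolated with a NucleoSpin kit and sequenced after TruSeq stranded mRNA preparation, per the labels' protocols. The authors deposited a table of raw counts with 1 gene symbol a line and 1 library a column, per the file headers. The submitters' processing notes name bcl2fastq 2.17, STAR 2.5.2b, Subread 1.5.1 and the genome build mm10. The sources used here do not give the annotation or the strand setting of the counting.

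The counts went into edgeR 4.0.16 (R 4.3.3). Its filterByExpr function, with a minimum count of 10 and a minimum total of 15, retained 15482 genes, and TMM scaled the libraries. One quasi-likelihood fit over the 18 libraries held a term for each group, with Benjamini-Hochberg adjustment across the genes tested and calls under 0.05. The SE given with an edgeR log2 fold change was derived from its test. It is the absolute log2 fold change divided by the square root of the quasi-likelihood F statistic. Alternatives were DESeq2 1.42.0, limma 3.58.1 voom, other scalings and filters, a replicate block, the compared groups alone and libraries left out. Removal of the length and GC trend (lowess span 0.3, 13736 genes) and the omission of WT endpoint 1 and 3 were added after the data were seen. The scripts were tested on simulated data.

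The collagen genes, classes and gene lists were chosen with earlier results of these data known. All 43 genes of the pattern are named in the text. Values by library are given for the main type I, III, V, IV and VI genes and for every called gene, and statistics for called genes and for up to 3 per direction with the smallest p. Col6a4, Col7a1, Col8a2, Col9a2, Col14a1, Col17a1, Col18a1 and Col23a1 were added after their values were seen. Of the lists, called genes or else the 2 with the smallest p are named. CPM per kb, mRNA lengths and GC content use the longest protein-coding transcript of the GENCODE annotation of GRCm38. Read totals of 16121743 to 24586404 leave genes under 1 CPM with few reads, and without molecular identifiers, PCR copies count as reads.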

Additional observations from a re-analysis of the deposited data

How the results depend on the processing

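At the endpoint against 2 weeks with the genotypes averaged, the number of collagen genes called, 14 as reported, ranged from 10 with the compared groups alone to 17 with DESeq2. Against untreated glands, the 1 call at the endpoint was 13 with DESeq2 and 0 under DESeq2's size-factor scaling in edgeR (RLE), without a filter, with a filter at a mean of 1 CPM, with the compared groups alone, without both doubted libraries (WT endpoint 1 and Cip2a-/- 2 weeks 2, set apart for muscle or lymph node markers in earlier results of these data), with the length and GC trend removed and without WT endpoint 1 and 3, and it ranged from 0 to 5 with each library left out. Its count was also 1 with the replicate block, but there Col15a1 lost its call and Col5a2 gained one. Within genotypes, where the reported counts were 0, DESeq2 called 1 (Cip2a-/-, Col6a6) and 7 (WT) against untreated glands, and 11 (Cip2a-/-) and 13 (WT) against 2 weeks. Leaving out each library gave 0 to 5 in Cip2a-/- (5 without Cip2a-/- endpoint 1) and 0 to 11 in WT (11 without WT endpoint 2) against 2 weeks. For these fits within a genotype the share of all genes called is not given here, so the counts cannot be set against it. Between the genotypes at the endpoint DESeq2 called 1, as it did for the difference in response. In every case the cause was not tested.

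Class medians moved most without WT endpoint 2 and 3. The fibrillar median against untreated glands ranged from -1.57 to -1.08 with each library left out (-1.57 without WT endpoint 3). The median of the other collagens ranged from -0.94 to 0.15 against untreated glands and from -0.74 to 0.29 against 2 weeks (-0.94 and -0.74 without WT endpoint 2). Signs of single genes that were not called reversed in places. Genotype averages reversed for Col15a1 to -0.011 without Cip2a-/- endpoint 1 (highest 0.64 with 1 library left out), for Col6a5 to 0.23 without WT endpoint 1 (lowest -0.93), to 0.26 without both doubted libraries and 0.59 without WT endpoint 1 and 3, and for Col27a1 to 0.10 without WT endpoint 1 and 3. Col9a1 reversed to -1.17 against untreated glands without WT endpoint 2 (highest 1.38), and Col6a5 to -0.17, -0.22 and -0.69 against 2 weeks in the same 3 settings as above (highest 1.59). The cause was not tested. Over the named genes, 765 of the alternative values kept direction and side of the threshold, 53 lost the call, 8 gained it and 9 reversed.

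Over all genes, the called number was 39 at the endpoint against untreated glands, 845 with DESeq2, 23 with voom, 4 with the compared groups alone, 60 with the block and 26 with the trend removed. It was 279 without WT endpoint 1 and 226 without Cip2a-/- endpoint 1. Against 2 weeks it was 2067, 3256 with DESeq2, 605 with the compared groups alone and 1227 with the trend removed, and at 2 weeks against untreated glands 4, and 88 with DESeq2.

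The labels give the groups shared replicate numbers, but the 45 pairs of libraries with the same number had correlations of their deviations from -0.47 to 0.66 (median 0.0006, 17 of 45 over 0.1), and 10 of 18 libraries correlated best with their own number, so the numbers were not taken as pairing. With the replicate block, 17 collagen genes were called at the endpoint against 2 weeks in the average, and in WT glands 1 against 2 weeks (Col5a2) and 1 against untreated glands (Col4a4), where the reported counts were 14, 0 and 0. Depth limits Col4a3, Col4a4 and the other genes near 1 CPM.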
